A study of Mus musculus with 2 samples.

Results

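Chromatin accessibility was described at 9 mouse genes of the PI3K, phosphatase and mTOR pathway: Inpp4b, Phlpp1, Pik3cd, Pik3r1, Pik3ip1, Akt1, Mtor, Rptor and Tsc1. They were 9 of 21938 protein-coding genes of the annotation. The accessible regions assigned to them were those that overlapped the gene body or 10 kb to either side of it, and no accessibility value was used to choose the regions of a locus. In replicate 1, 140 of 68832 regions on chromosomes 1 to 19, X and Y fell into these loci, and in replicate 2, 158 of 78178. A region of replicate 1 that shared at least 1 bp with a region of replicate 2 was called replicated, and the 9 loci held 130 such regions.

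The study holds 1 group of 2 ATAC-seq libraries, an assay in which a transposase inserts sequencing adapters into open DNA. Both came from primary regulatory T cells of C57BL/6NJ mice, with no genotype or treatment given, an unknown age and a sex that was not collected. The libraries are called biological replicates but share a donor identifier, so it is not known that they came from separate animals. A linked protocol, for the differentiation of CD4 T cells, was not consulted. The names of the list entries mention 72 hours, ASTARR and insert, and no source used here explains ASTARR or insert. With 1 group, no comparison of conditions and no test between groups was possible, and every value here describes these libraries. Depth is unknown, because the lists used here give regions, not reads. By promoter regions the markers matched the label. All 6 regulatory T cell genes examined (Foxp3, Il2ra, Ctla4, Ikzf2, Ikzf4 and Tnfrsf18) and all 5 T cell genes had a promoter region in both replicates. So did 1 of 2 CD8 T cell, 1 of 5 B cell, 2 of 5 myeloid, 1 of 2 NK and 0 of 2 hepatocyte genes. Locus counts separated the lists less. All 6 regulatory T cell and all 5 T cell genes had more replicated regions than the median of the 500 protein-coding genes nearest in locus length. So did 3 of 5 B cell genes, with Cd79a at percentile 98.4, and 1 of 5 myeloid, 1 of 2 NK, 0 of 2 CD8 T cell and 0 of 2 hepatocyte genes.

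Class I PI3K enzymes join a catalytic subunit to a regulatory subunit and phosphorylate a membrane lipid, and the product recruits the kinase AKT. AKT inhibits the TSC complex, which holds back the RHEB GTPase and with it mTOR complex 1, a kinase that promotes protein synthesis and growth. Lipid phosphatases and the PHLPP phosphatases act against the pathway at the lipid and at AKT. In regulatory T cells the pathway is known to need restraint for stable Foxp3 expression and yet mTOR complex 1 activity for suppressive function. The 9 genes include a catalytic subunit (Pik3cd), a regulatory subunit (Pik3r1), a transmembrane inhibitor (Pik3ip1), phosphatases (Inpp4b and Phlpp1), the kinase Akt1, the kinase Mtor with its complex 1 scaffold Rptor, and a subunit of the TSC complex (Tsc1).

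The sequences on which most of the distal description turns are those at the summits of the strongest distal regions. A distal region had its midpoint more than 1 kb from every annotated start of a protein-coding gene, and strength here is the mean −log10 q of both replicates. Each window runs 60 bases to either side of the replicate 1 summit on the plus strand of the RefSeq GRCm38.p6 genome, the mm10 build of the deposited lists, and none overlapped an annotated exon. Capitals mark matches, on either strand, to any of 18 short consensus motifs. Those found in the windows shown are TGTGGT for RUNX factors, TGANTCA for AP-1, CAGGAAG for ETS factors, TGGAAAA for NFAT, AGGNGGC for CTCF, TTCNNNGAA for STAT factors, AGATAA for GATA factors and CTTTGA for TCF1/LEF1, or their reverse complements. Inpp4b appears with the distal region of highest mean −log10 q, in intron 8, and with that of highest mean signal, in intron 2.
Inpp4b intron 8, chr8:81867164-81867284, + strand: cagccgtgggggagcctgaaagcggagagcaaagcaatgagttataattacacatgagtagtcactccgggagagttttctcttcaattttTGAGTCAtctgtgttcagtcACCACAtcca
Inpp4b intron 2, chr8:81497813-81497933, + strand: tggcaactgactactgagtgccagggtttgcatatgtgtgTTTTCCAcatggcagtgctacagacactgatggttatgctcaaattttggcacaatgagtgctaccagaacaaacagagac
Phlpp1 intron 10, chr1:106352910-106353030, + strand: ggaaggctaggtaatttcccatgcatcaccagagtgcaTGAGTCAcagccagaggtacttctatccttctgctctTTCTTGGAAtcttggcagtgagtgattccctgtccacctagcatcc
Pik3cd upstream flank, chr4:149710675-149710795, + strand: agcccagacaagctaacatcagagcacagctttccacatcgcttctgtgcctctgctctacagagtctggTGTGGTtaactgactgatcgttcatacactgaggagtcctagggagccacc
Pik3cd intron 8, chr4:149658170-149658290, + strand: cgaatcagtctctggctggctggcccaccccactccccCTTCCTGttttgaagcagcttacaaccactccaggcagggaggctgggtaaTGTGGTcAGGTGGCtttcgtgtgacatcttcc
Pik3r1 intron 2, chr13:101719436-101719556, + strand: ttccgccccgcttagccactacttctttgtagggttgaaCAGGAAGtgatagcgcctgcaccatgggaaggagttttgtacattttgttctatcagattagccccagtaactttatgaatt
Pik3ip1 downstream flank, chr11:3347190-3347310, + strand: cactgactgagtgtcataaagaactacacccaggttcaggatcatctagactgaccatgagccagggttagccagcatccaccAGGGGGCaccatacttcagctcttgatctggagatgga
Mtor upstream flank, chr4:148438464-148438584, + strand: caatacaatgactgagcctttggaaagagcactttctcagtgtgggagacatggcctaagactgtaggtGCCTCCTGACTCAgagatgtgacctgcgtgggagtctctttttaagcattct
Rptor intron 2, chr11:119671141-119671261, + strand: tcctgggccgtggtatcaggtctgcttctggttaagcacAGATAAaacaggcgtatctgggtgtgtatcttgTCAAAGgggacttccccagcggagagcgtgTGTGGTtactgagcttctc
The Phlpp1 window is that of its second-ranked distal region, shown because the first, in intron 4, held none of the 18 motifs in the same window. The window of the Akt1 distal region held none either and is not shown. In the Mtor window the CTCF and AP-1 matches overlap by their shared T. Tsc1 had no distal replicated region, so no window is shown for it.

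The promoters differed in base composition, and 4 of them are shown for that contrast. Each line gives the 150 bases that end just before the RefSeq start, on the strand of the gene (GRCm38.p6), and capitals mark matches on either strand to CCAAT for NFY and GGGGCGGGG for SP/KLF factors. None of these windows overlapped an annotated exon.
Mtor promoter, chr4:148448432-148448581, + strand: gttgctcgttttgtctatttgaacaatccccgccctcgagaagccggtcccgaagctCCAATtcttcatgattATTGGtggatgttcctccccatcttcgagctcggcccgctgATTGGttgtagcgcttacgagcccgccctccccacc
Pik3r1 promoter, chr13:101768218-101768367, − strand: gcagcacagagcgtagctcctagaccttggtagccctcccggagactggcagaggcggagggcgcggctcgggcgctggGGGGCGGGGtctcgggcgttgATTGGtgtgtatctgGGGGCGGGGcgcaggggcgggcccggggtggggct
Pik3cd promoter, chr4:149698709-149698858, − strand: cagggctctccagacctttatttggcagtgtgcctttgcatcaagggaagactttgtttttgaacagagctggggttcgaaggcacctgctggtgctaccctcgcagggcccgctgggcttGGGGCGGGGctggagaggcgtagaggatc
Rptor promoter, chr11:119602755-119602904, + strand: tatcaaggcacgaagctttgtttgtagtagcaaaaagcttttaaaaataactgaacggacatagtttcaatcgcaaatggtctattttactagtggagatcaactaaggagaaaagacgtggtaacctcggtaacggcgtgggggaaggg
All 9 genes matched the RefSeq promoter table, with 13 promoters of 300 bases between them. GC content of the first promoter of each gene was highest at Pik3r1 (75.7%, with 34 CpG dinucleotides) and Phlpp1 (70.7%, 42 CpG), and lowest at Rptor (41.7%, 13 CpG). The median over the promoters of the table was 52.7% GC and 7 CpG. The Mtor window held 3 matches to the NFY motif, and the Pik3r1 window 2 matches to the SP/KLF motif and 1 to the NFY motif. Over whole 300-base promoters, the NFY motif was present in the first promoter of 3 of the 9 genes (Inpp4b, Mtor and Pik3r1), against 37.4% of 32817 promoters. The SP/KLF motif was present in 2 of the 9 (Pik3cd and Pik3r1), against 11.4% of promoters. A match is a description of letters, and no binding was measured.

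All 9 genes had a region within 1 kb of an annotated start in both replicates, where 64.4% of all protein-coding genes did. The locus of 8 of the 9 held more replicated regions than the median of the 500 protein-coding genes nearest to it in locus length, where 42.7% of all genes did. The exception was Tsc1. The median percentile of the 9 among their like-length genes was 87.4, against 48.2 over all protein-coding genes. Since the genes were listed with accessibility results of these libraries known, these shares describe the 9 and are no evidence about the pathway.

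**Figure D1:**
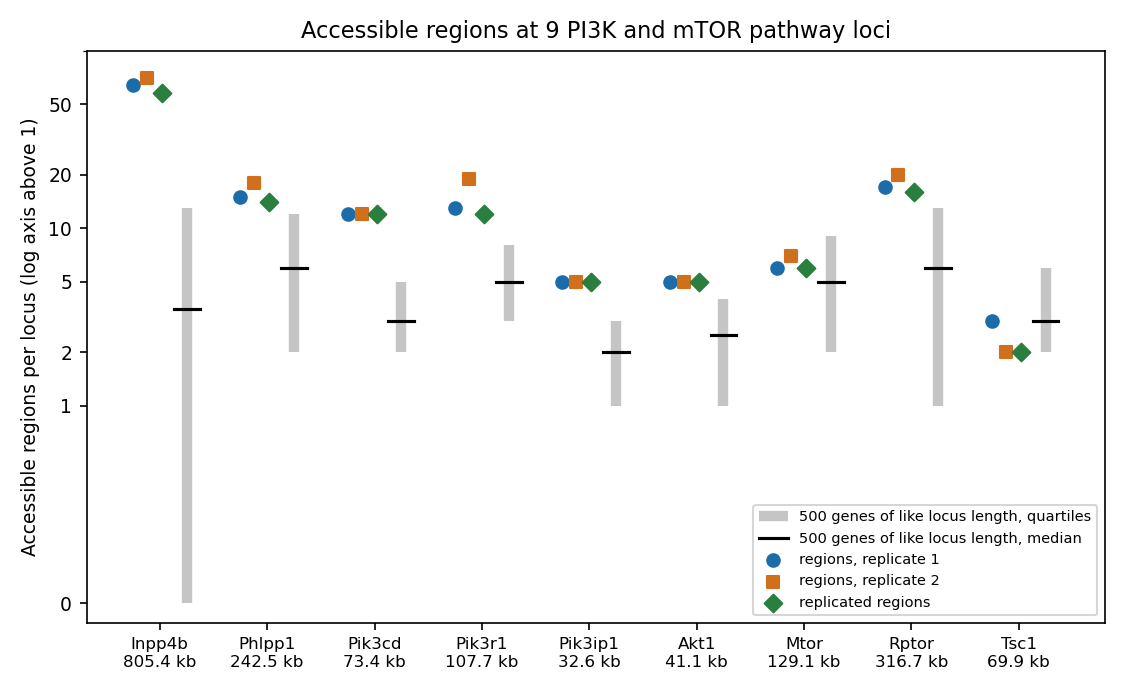
Accessible regions per locus (gene body with 10 kb to either side, locus length under each name) in replicate 1 (circles), in replicate 2 (squares) and replicated (diamonds). Grey bars and black lines give the quartiles and median of replicated regions over the 500 protein-coding genes nearest in locus length; the y axis is linear from 0 to 1 and logarithmic above. Inpp4b stands highest with 58 replicated regions against a median of 3.5, and Tsc1, with 2 against 3, is the only locus under its median.

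Of the 140 member regions of replicate 1, 92.9% were overlapped in replicate 2, against 93.2% of all regions of replicate 1. Of the 158 member regions of replicate 2, 80.4% were overlapped in replicate 1, against 81.6% of all regions of replicate 2. Reproducibility at these loci was thus near the background. Regions listed in 1 replicate alone numbered 10 for replicate 1 and 31 for replicate 2, and their median −log10 q was 6.51, with a highest value of 33.7 in intron 1 of Phlpp1. Summits of replicated regions lay a median of 17 bp apart. Over the 130 replicated regions, Spearman's rho between the replicates was 0.916 for signal and 0.927 for −log10 q, a description across regions of the same genome that are not independent replicates. The −log10 q was higher in replicate 2 in 113 of the 130, while the signal was higher there in 63.

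**Figure D2:**
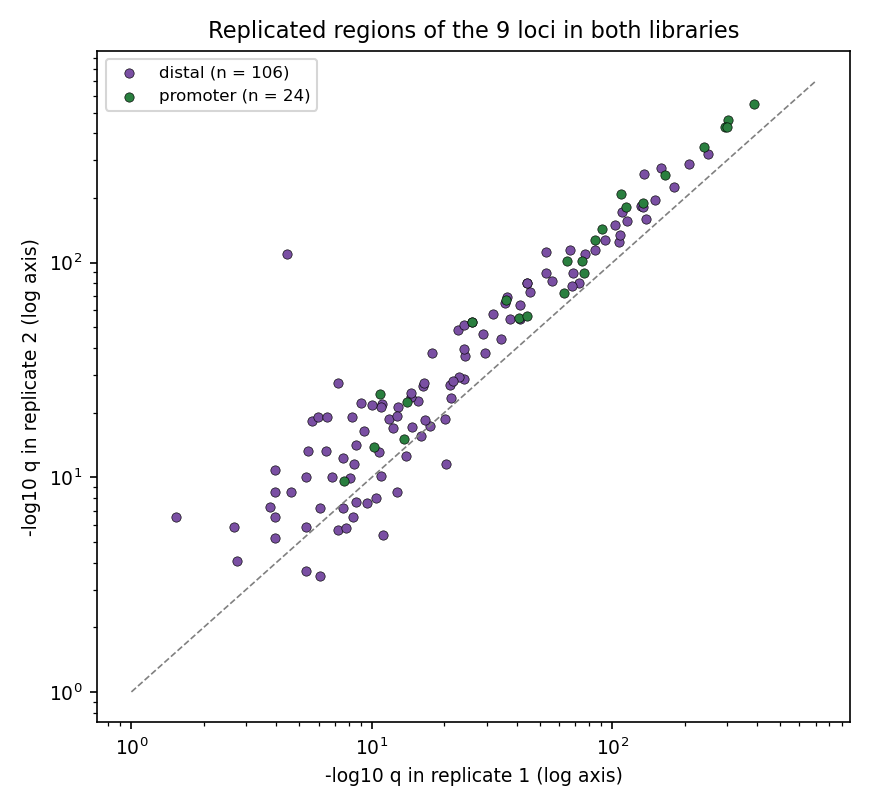
−log10 q of the 130 replicated regions in replicate 1 (x axis) and replicate 2 (y axis), both logarithmic, with promoter regions in green, distal regions in purple and equality as a dashed line. Points lie above the line in 113 regions; the point far from the rest, at 4.43 in replicate 1 and 110 in replicate 2, is an intron 6 region of Inpp4b whose overlapping replicate 2 region is 2295 bp wide.

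The replicated regions were mostly intronic. By midpoint, 90 of the 130 lay in introns, 24 within 1 kb of a start, 13 in the flanks and 3 in exons, and the promoter share of 18.5% compared with 24.2% of all 64172 replicated regions. Inpp4b set that direction: it held 52 of the 90 intron regions and 3 of the 24 promoter regions. Without it, 21 of 72 regions lay at promoters (29.2%), above the share of all replicated regions. Their median width in replicate 1 was 651.5 bp, against 666 bp over all replicated regions. Signal had a median of 5.62 (replicate 1) and 5.91 (replicate 2) at these loci, against 6.92 and 7.17 over all replicated regions, and of 6.33 and 6.11 without Inpp4b. The median −log10 q was 20.8 and 27.8 at the 9 loci, against 24.7 and 37.3 over all replicated regions. Without Inpp4b it was 30.7 and 53.8, so by −log10 q the direction turned. Only 8 regions, in 5 of the loci, were among the top 10% of both lists by signal (6.15%, against 9.52% of all replicated regions). By −log10 q, 11 regions in 8 loci were so (8.46%, against 10.4%). These counts include promoters of neighbours. The Mtor locus entered by signal through the Exosc10 promoter alone, and the Akt1 locus by −log10 q through the Siva1 promoter alone.

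**Figure D3:**
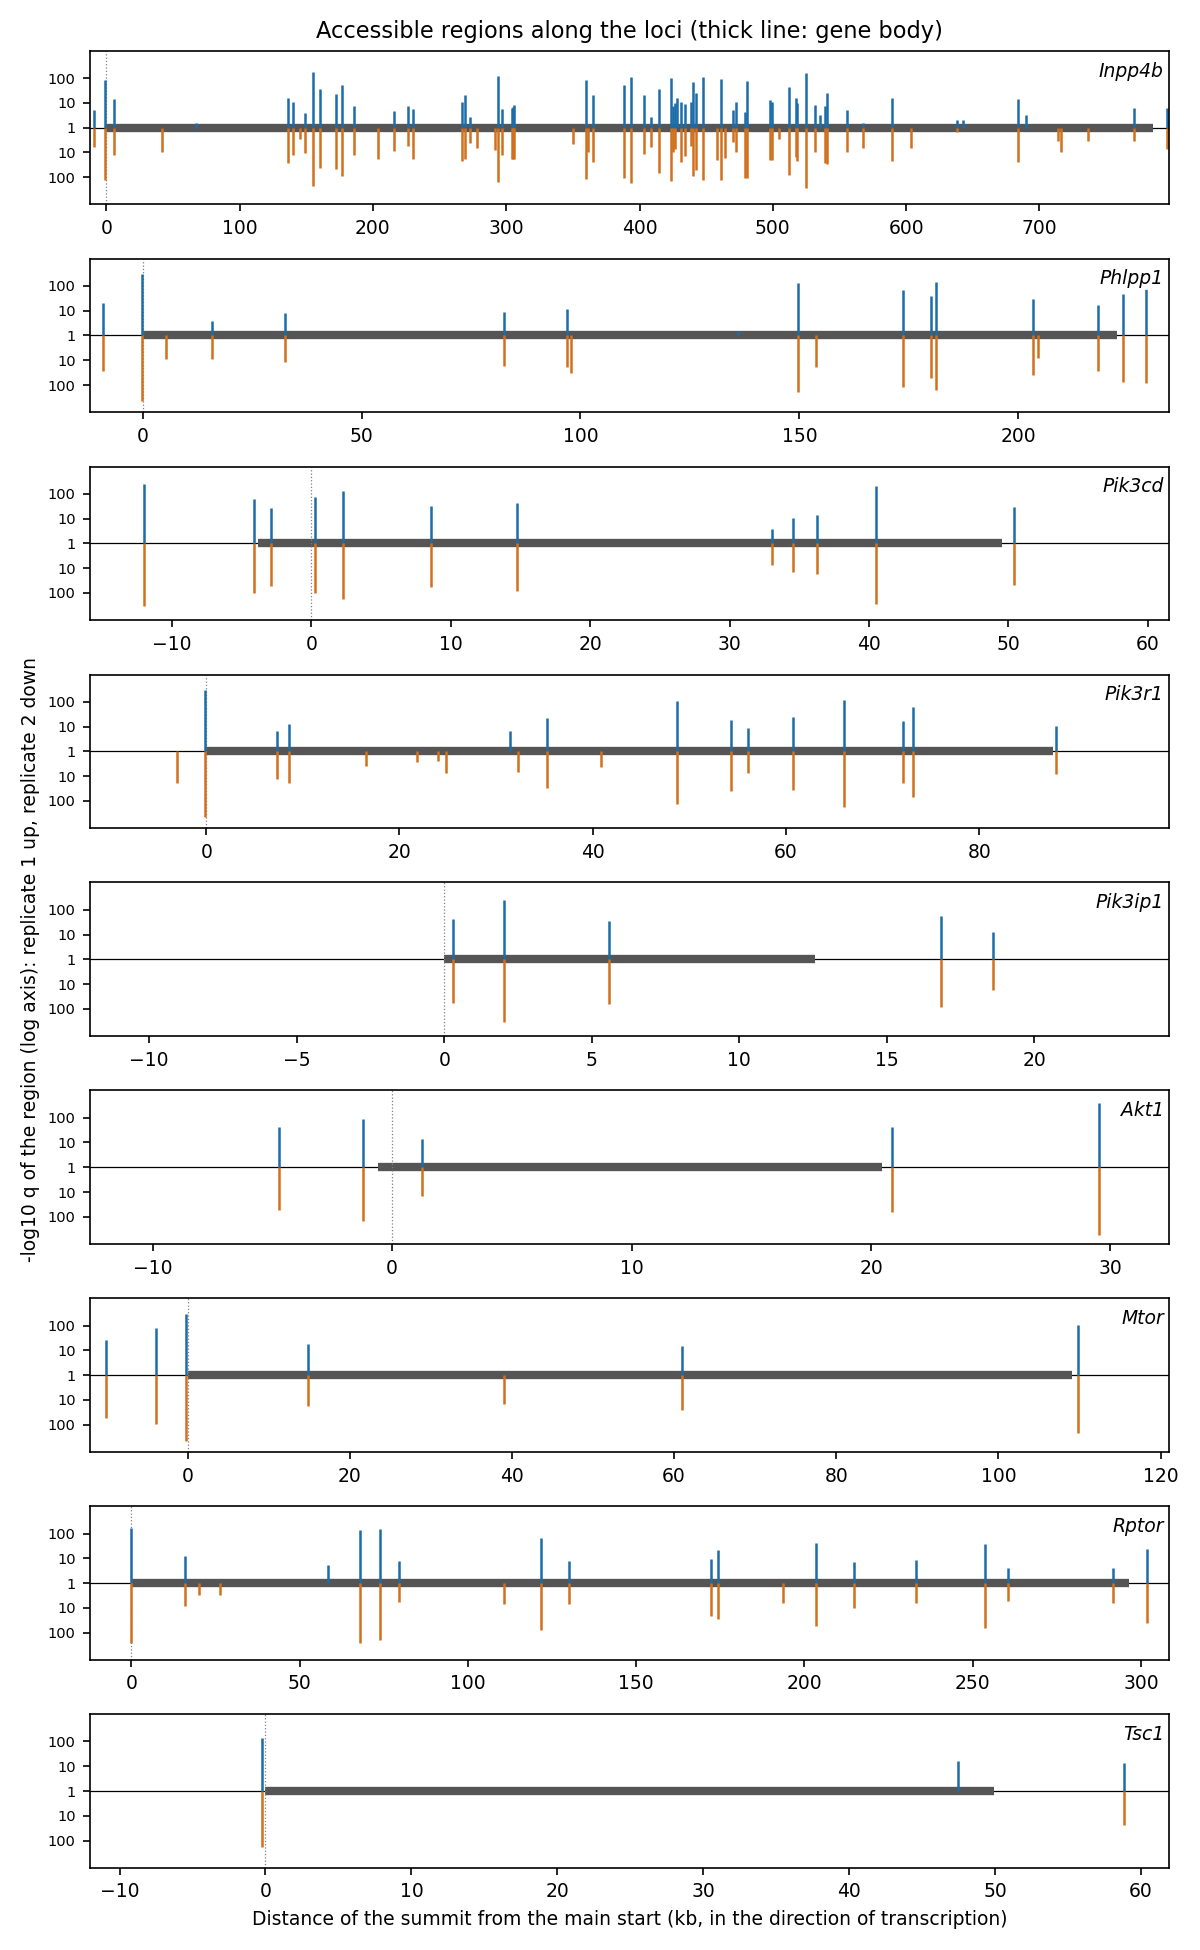
Regions along the 9 loci, by distance of the summit from the main start in kb (x axis, in the direction of transcription). The thick line is the gene body and the dotted line the main start. The y axis gives −log10 q (logarithmic, replicate 1 upward in blue, replicate 2 downward in orange). Replicated regions stand at the replicate 1 summit in both directions, with the replicate 2 region of largest overlap. A wide replicate 2 region can thus be drawn more than once. The 130 kb of Inpp4b before its crowded middle, the spread along Pik3cd and Pik3r1 and the Tsc1 body, with 1 region listed in replicate 1 alone, can be seen.

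Inpp4b encodes a phosphatase that removes the 4-phosphate from a membrane phosphoinositide made downstream of PI3K. Its gene (ENSMUSG00000037940.17, chr8:81342556-82127914, plus strand, mm10) spans 785.4 kb and carried 64 regions in replicate 1, 70 in replicate 2 and 58 replicated ones, which is 44.6% of all replicated regions of the 9 loci. The 500 genes nearest in length, whose loci span 336 to 1270 kb, had a median of 3.5 replicated regions with quartiles of 0 and 13, and Inpp4b stood at percentile 99.8. Such a comparison at this length reaches over loci of very unequal size, since few genes are as long. The regions were not spread evenly. Intron 1 of 130 kb held 1 replicated region, and intron 2 of 268 kb held 23. Intron 6 of 73.5 kb held 12 regions and intron 8 of 27.4 kb held 6. The most crowded 100 kb, between region midpoints at 388 and 481 kb from the start, held 19.

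The first Inpp4b promoter was accessible but not the strongest site of its locus. The region chr8:81341410-81342922 had a signal of 8.39 in replicate 1 and 8.81 in replicate 2, and a −log10 q of 84.7 and 128. The distal region of intron 8 at chr8:81866581-81867660, 525 kb into the gene, had signals of 14.2 and 14.9 and a −log10 q of 160 and 276. The highest mean signal of the locus stood in intron 2, 155 kb from the start, with 15.3 and 14.6. In replicate 2 alone, the intron 8 region and another intron 2 region, 388 kb from the start with 15.5, were higher. Both distal sites exceeded the promoter in each replicate on both scales, and their summit sequences carried a RUNX and an AP-1 match in the first case and an NFAT match in the second. Regions without a partner at Inpp4b numbered 15 in replicate 2 and 6 in replicate 1.

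Inpp4b has 9 annotated start groups, formed by merging starts within 500 bp. A region lay within 500 bp in both replicates at 3 of them: the first, and those at 425 and 431 kb. Another, at 428 kb, had a region in replicate 1 alone. No region lay at the starts 373, 399 and 514 kb into the gene, from which transcripts for proteins of up to 924, 941 and 809 residues are annotated.

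Phlpp1, a phosphatase that dephosphorylates AKT, spans 222.5 kb (ENSMUSG00000044340.7, chr1:106171752-106394250, plus strand) and had 15 regions in replicate 1, 18 in replicate 2 and 14 replicated. Its like-length genes had a median of 6, with quartiles of 2 and 12, which placed it at percentile 80.2. Its promoter, chr1:106171153-106173050, was among the strongest of the 9 genes, with signals of 14.6 and 15.1 and a −log10 q of 295 and 429. The body divided into a sparse and a crowded stretch: no replicated region lay between 97 and 149 kb from the start. The intron 4 region that ends this gap, chr1:106320699-106321959, had signals of 11.2 and 11.3 and was the strongest distal region by −log10 q (132 and 183). Regions in introns 8 and 10 reached signals of 13.3 and 13.7 in replicate 1, and 15.2 and 11.6 in replicate 2. Only 1 of its 3 start groups had a region in both replicates.

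Pik3cd encodes p110 delta, the catalytic subunit that predominates in leukocytes. The gene (ENSMUSG00000039936.18, chr4:149649168-149702571, minus strand) had 12 regions in replicate 1 and 12 in replicate 2, all paired, and was the 1 locus of more than 5 regions where both lists fully matched. Genes of like length had a median of 3 with quartiles of 2 and 5, which put Pik3cd at percentile 99.3, and its density of 16.3 replicated regions per 100 kb was the highest of the 9. The strongest site lay outside the gene. The region chr4:149710279-149711070, at −12.027 kb from the main start and in the flank, had signals of 17.0 and 16.4, at percentiles 98.8 and 98.1 of the lists, and a −log10 q of 250 and 322. An intron 8 region, chr4:149657814-149658663, followed with signals of 12.2 and 11.7 and a −log10 q of 209 and 287. The summit window of the flank site carried a RUNX match, and that of intron 8 had an ETS, a RUNX and a CTCF match.

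The Pik3cd promoter ranked low by signal and high by −log10 q. The region at the main start, chr4:149697892-149698933, had a signal of 4.05 in replicate 1 and 3.91 in replicate 2, at percentiles 21.2 and 25.5. Its −log10 q of 74.9 and 102 stood at percentiles 78.8 and 80.0. Further starts at −3.863 and −2.882 kb also had a region in both replicates, which makes 3 of 6 start groups, whereas those at 22.6, 24.5 and 35.4 kb had none within 500 bp. A replicated region 34.5 kb from the main start, chr4:149664033-149664535, reached within 1 kb of the last of them, with signals of 3.56 and 3.37. Another at 36.3 kb, chr4:149662056-149662508, did so from the other side, with signals of 2.98 and 2.69. The 3 inner starts each begin a transcript with a consensus coding sequence.

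Pik3r1 encodes p85 alpha with the shorter p55 alpha and p50 alpha, regulatory subunits made from different starts. The gene (ENSMUSG00000041417.15, chr13:101680563-101768217, minus strand) had 13 regions in replicate 1, 19 in replicate 2 and 12 replicated, at percentile 93.2 against a like-length median of 5. Of its regions, 7 stood in replicate 2 alone and 1 in replicate 1 alone, most of them in intron 2 and none above a signal of 3.42. The promoter of the 724-residue product, chr13:101767246-101768939, had signals of 10.9 and 10.9 and a −log10 q of 301 and 430. Regions in both replicates also lay at the starts 66.1 and 73.6 kb downstream. The first of these begins a transcript with a retained intron, and the other a partial coding transcript of 112 residues. The start at 75.6 kb, which begins a coding transcript of 454 residues, had no region within 500 bp in either replicate. The strongest distal region lay in intron 2 at chr13:101718669-101719936, with signals of 10 and 9.09 and a −log10 q of 108 and 134, and carried an ETS match at its summit.

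Pik3ip1 encodes a transmembrane protein that binds and inhibits the PI3K catalytic subunit. Its short gene (ENSMUSG00000034614.14, chr11:3330401-3342971, plus strand, 12.6 kb) had 5 regions in each replicate, all paired, at percentile 92.5 against a like-length median of 2. The region at the first start, chr11:3330493-3330957, was low by signal, with 3.99 and 3.83 at percentiles 20.8 and 23.8, but not by −log10 q, with 44.0 and 56.7 at percentiles 67.7 and 68.6. A promoter region higher on both scales lay at the start group 1.67 kb further in, chr11:3331828-3332627, with signals of 8.89 and 8.92 and a −log10 q of 240 and 345. A downstream flank region, chr11:3347024-3347937, was close to it in signal (9.09 and 9.07) and lower by −log10 q (56.2 and 82.4). The summit of that flank region carried a CTCF match.

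Akt1 encodes a serine/threonine kinase activated by the PI3K lipid product. The gene (ENSMUSG00000001729.14, chr12:112653821-112674884, minus strand, 21.1 kb) had 5 regions in each replicate, all paired, at percentile 87.4 against a like-length median of 2.5. However, 2 of the 5 lay at the promoters of its neighbours Siva1 and Zbtb42 alone. The strongest region of the locus was the Siva1 one, chr12:112644359-112645482, with signals of 12.9 and 12.9 and a −log10 q of 387 and 549. The main Akt1 promoter region, chr12:112674342-112675868, had signals of 6.89 and 7.06, at percentiles 52.5 and 58.3 of the lists. Its −log10 q of 90.8 and 143 stood higher, at percentiles 82.4 and 85.4. The 19.1 kb between 1.3 and 20.4 kb from the start held no replicated region. The 1 distal region, at chr12:112653096-112653923 around the 3′ end, had signals of 7.89 and 7.72.

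Mtor encodes the kinase of both mTOR complexes. The gene (ENSMUSG00000028991.15, chr4:148448611-148557683, plus strand, 109.1 kb) had 6 regions in replicate 1, 7 in replicate 2 and 6 replicated, at percentile 54.8 against a like-length median of 5. The promoter was strong, with signals of 11.2 and 11.4 and a −log10 q of 302 and 462 at chr4:148448244-148449207. A region at the promoter of its neighbour Exosc10 alone, chr4:148557950-148559333, had the highest signal of the locus (13.4 and 15.5). Within 109.1 kb of gene, the body beyond the promoter held 2 replicated regions, in introns 9 and 28, with signals between 6.17 and 7.51. The strongest distal region lay upstream at −10.087 kb, with signals of 8.1 and 9.44.

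Rptor encodes raptor, the scaffold that brings substrates to mTOR complex 1. The gene (ENSMUSG00000025583.15, chr11:119602905-119899576, plus strand, 296.7 kb) had 17 regions in replicate 1, 20 in replicate 2 and 16 replicated, at percentile 82.1 against a like-length median of 6. Its promoter, chr11:119602454-119603801, had the highest signal among the promoter regions of the 9 genes, 17.1 and 18.7, at percentiles 98.9 and 99.8. It was also the most AT-rich of the first promoters. By −log10 q (165 and 257) those of Phlpp1, Pik3r1, Pik3ip1 and Mtor stood higher. In intron 2, 68.1 kb from the start, the region chr11:119671022-119671518 had signals of 15.4 and 17.8 in a width of 497 bp and carried RUNX, TCF1/LEF1 and GATA matches around its summit. Regions in intron 3 reached 14.1 and 12.1. An inner promoter region 254 kb into the gene, chr11:119855807-119856999, lay within 500 bp of 2 start groups and had signals of 8.17 and 9.56.

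Tsc1 encodes hamartin, which stabilises the TSC complex that restrains RHEB. The gene (ENSMUSG00000026812.16, chr2:28641228-28691167, plus strand, 49.9 kb) was the only one of the 9 with no distal replicated region. Its promoter, chr2:28640362-28641992, was strong, with signals of 12.7 and 12.4 and a −log10 q of 134 and 189. The second replicated region of the locus lay at the Ak8 and Spaca9 promoters. Another region, in an exon 47.4 kb from the start, stood in replicate 1 alone with a signal of 7.16. The locus stood at percentile 27.4 against a like-length median of 3. Of its 5 start groups only the first had a region, and the coding start at 17.3 kb for a 1160-residue product had none.

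Over all 9 genes, 21 of 47 start groups had a region in both replicates, where 34.8% of all start groups of protein-coding genes did. Of the 38 start groups after the first of each gene, 12 had one, where 18.1% did. The number with a region ranged from 1 (Mtor, Phlpp1 and Tsc1) to 4 (Rptor, of 8 start groups). Some groups lie close together and share a region, as at Rptor and Pik3ip1, so they are not independent.

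The rank of a region depended on which of the values that the authors gave was read. The signal has no stated scale, and the −log10 q is a value of the region within its own list. At Pik3ip1 the median replicated region stood at percentile 20.8 by signal and 67.7 by −log10 q in replicate 1, and at 25.5 and 71.5 in replicate 2. At Pik3cd the medians were 32.4 and 63.9 in replicate 1, and 40.4 and 72.2 in replicate 2. At Rptor the order was the other way round, with 49.7 by signal and 42.5 by −log10 q in replicate 1, and 56.0 and 49.1 in replicate 2. The percentile by −log10 q was the higher in each replicate in all 5 Pik3ip1, all 5 Akt1, 11 of 12 Pik3r1 and 10 of 12 Pik3cd regions. At Rptor this held for 1 of 16 regions and at Phlpp1 for 4 of 14.

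This gap moved with the number of other regions nearby in replicate 1, the only replicate for which this was computed. Among member regions, the percentile by −log10 q minus that by signal had a median of −8.1 with no other region within 10 kb (22 regions), −0.6 with 1 (35), 3.6 with 2 (35) and 13.3 with 3 or more (38). Over all replicated regions the medians were −9.28, −5.33, 0.629 and 12.2 in the same order, so the gap was not limited to the member loci. Its cause was not tested.

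**Figure D4:**
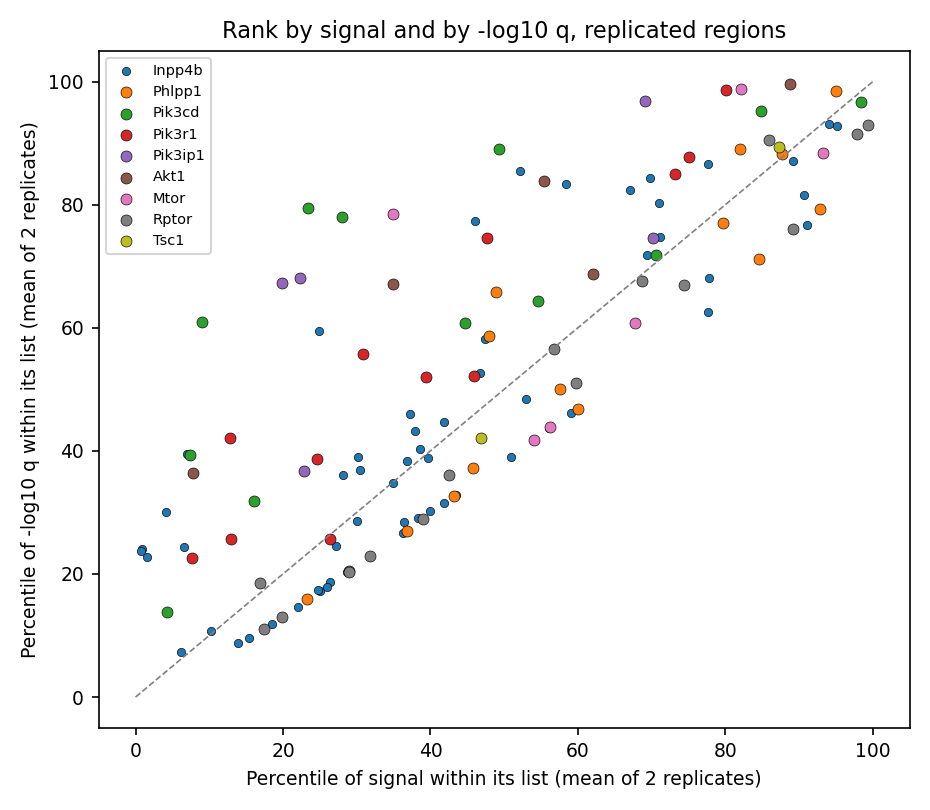
Percentile of each replicated region of the 9 loci within the lists, by signal (x axis) and by −log10 q (y axis), each the mean of both replicates, coloured by gene with equality as a dashed line. All 5 Pik3ip1 and all 5 Akt1 regions lie above the line, and most of the 16 Rptor regions lie below it.

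Motifs around the summits of the 106 distal replicated regions were set beside those of all 48648 distal replicated regions, and 55 of the 106 came from Inpp4b. Within 100 bp of the summit, TGTGGT (RUNX) was found in 29 member regions, which is 27.4%, against 23.2% of all distal regions. CAGGAAG (ETS) was found in 21 (19.8%, against 16.7%), and TGANTCA (AP-1) in 25 (23.6%, against 22.5%). These are motifs of factor families that are active in T cells. AGATAA, a motif of GATA factors, was found in 16 regions (15.1%, against 9.55%), and TGGAAAA, a motif of NFAT, in 8 regions (7.55%, against 5.01%). Those shares stood at 1.58 and 1.51 times the share of all distal regions, and at 1.08 and 1.24 times within 50 bp of the summit. The short CTCF core AGGNGGC was found in 12 (11.3%, against 18.8%). Some motifs were rare: CACGTG (E-box) was found in 2 (1.89%, against 3.2%), AAAGGTCA (NR4A) in 1 (0.943%, against 3.19%) and GGGANTTTC (NF-kB) in 1 (0.943%, against 2.13%). CCGGAAG, another ETS motif, was found in 0, against 1.89% of all distal regions. TTCNNNGAA (STAT) was present in 20 (18.9%, against 15.9%), CCAAT (NFY) in 25 (23.6%, against 20.2%), CTTTGA (TCF1/LEF1) in 19 (17.9%, against 17.7%) and GAAANNGAA (IRF) in 9 (8.49%, against 8.78%). GTAAACA, the motif of the FOXO factors that AKT phosphorylates, was present in 3 (2.83%, against 2.36%). The median GC content of the windows was 44.5% at member regions and 47.8% over all distal regions, and its part in these shares was not tested. Within 50 bp of the summit the RUNX, AP-1 and NFY shares were below those of all distal regions and the IRF share stood above, so these 4 had no stable direction.

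The wider pathway was described through 60 genes in 7 lists, to which the 9 belong. A promoter region in both replicates was found for all 9 members and for 50 of the 51 other genes, where 64.4% of all protein-coding genes had one. The exception was Pik3r6, a regulatory subunit of the gamma enzyme, whose promoters had no region in either replicate. More replicated regions than the like-length median were found at 8 of the 9 members and at 35 of the 51 others, where 42.7% of all genes had more. The lists were chosen with results of these libraries known, so these counts are a description. By role, the loci above their median numbered 9 of 11 in the class I PI3K list, 3 of 7 phosphatases, 3 of 4 in the AKT and PDK1 list, 7 of 9 mTOR complex genes, 2 of 4 TSC and RHEB genes, 10 of 16 nutrient sensing genes and 9 of 9 targets. Among genes other than the 9, the most replicated regions were found at Pik3ap1, an adaptor that recruits PI3K (17, percentile 96.7), and Prr5l, which associates with mTOR complex 2 (17, percentile 92.1). Depdc5, a subunit of an amino acid sensing complex, had 12.

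Within the phosphatase list the loci were unlike each other. Inpp4b (58 replicated regions) and Phlpp1 (14) stood above their like-length medians, while their closest relatives Inpp4a (5, percentile 48.1) and Phlpp2 (3, percentile 32.2) did not. In the TSC and RHEB list, Tsc2, the partner of Tsc1, had 1 replicated region against a median of 3 (percentile 16.5). Inpp4a, Phlpp2 and Tsc2 were named after their values were seen.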

How the data were processed

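ATAC-seq of mouse regulatory T cells was deposited as 1 narrowPeak list per library on mm10, each from the alignments of its own library, per the deposited text files. Entry names mention masking, removal of duplicates and sorting. Which aligner and peak caller were used, with which versions, and whether cut positions were shifted for the transposase is not given in the sources read. For each region the authors deposited a score, which was not used, a signal with no stated scale, −log10 p and −log10 q, and a summit offset. The lists held 68903 and 78262 entries for replicates 1 and 2, with a lowest −log10 q of 1.0. The 71 and 84 entries outside chromosomes 1 to 19, X and Y were left out. The sequencing depth is unknown, so no interval is given.

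From these lists, regions were assigned to loci (gene body with 10 kb to either side) of 21938 protein-coding genes of GENCODE release M21. Regions were replicated at an overlap of at least 1 bp. The main start is the most 5′ start of a transcript with a consensus coding sequence. Sequences came from RefSeq GRCm38.p6, and motifs were sought on both strands. With 1 group of 2 libraries there was no test. Named were the 9 genes and neighbours whose promoter a region overlapped. The other pathway genes with the most regions or with no promoter region in both replicates were named too. For each member, the promoter region and distal region of highest mean −log10 q and the region of highest mean signal were named. Other regions, start sites and pathway genes were chosen for naming once their values had been seen. Some genes that this rule takes are not reported here, though list counts include them. The members and lists were chosen with earlier results of these data known. Scripts used Python 3.11.15, pandas 2.3.3, numpy 2.4.6, scipy 1.17.1, pysam 0.24.0 and matplotlib 3.10.9. Of their steps, the overlap between lists and the region counts per locus were tested on simulated data, and the others were not. Alternatives changed the flank, the overlap, the entries kept, the promoter and motif windows, the number of like-length genes and the replicate left out.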

Additional observations from a re-analysis of the deposited data

How the results depend on the processing

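The 130 replicated regions of the 9 loci became 77 with the 50000 strongest entries of each list by signal and 86 with those by −log10 q, where fewer entries enter by construction. They ranged from 113 to 175 with the gene body alone, 50 kb flanks, a reciprocal overlap of 50%, a −log10 q of at least 5 or counting from replicate 2. Leaving out a replicate gave 140 to 158 regions. All 9 promoters remained accessible except with the 50000 strongest by signal, where 8 did and Pik3cd did not. Pathway promoters numbered 59 of 60, with 55 under that setting and 60 within 2 kb of a start. With 200 like-length genes, 8 of 9 loci again exceeded their median. Motifs above the share of all distal regions numbered 9 within 100 bp of the summit and 7 within 50 bp. Of 81 locus counts under alternatives, 65 were within 1.5 times the count given, 11 were lower and 5 higher. By signal, the 50000 strongest entries left 30 regions at Inpp4b, 6 at Pik3cd and 6 at Pik3r1. The promoter share of 18.5% became 29.2% without Inpp4b, a choice made after seeing the data. No paired analysis was possible because there is 1 group. Depth limits are unknown.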
